A study of Mus musculus with 6 samples.

Results

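Transcripts of 9 genes that direct osteoblast differentiation and the mineralization of its matrix were followed in monocytes of 2 skeletal sites, the mandible (libraries S16, S19 and S23) and the femur (libraries S13, S15 and S18). The genes were Runx2, Sp7, Alpl, Bglap, Bglap2, Phex, Phospho1, Pth1r and Enpp1, chosen by name, and all 9 were found among the 57010 rows of the count table. All libraries came from bone marrow of C57BL/6 mice (C57BL/6J, male and female, in the study's methods) 1 year old, flushed from the mandible or the femur, from which monocytes were enriched by holding back other cells with antibodies on a magnetic column and keeping the flow through. Which animals, of which sex and in which batch, gave each library, and whether marrow of several mice was pooled, is not given in the sources used here, so the p-values measure only the spread between these libraries. The comparison asks how the same cell preparation differs between the 2 skeletal sites.

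Osteoblasts are the cells that lay down bone matrix and then harden it with calcium phosphate. Runx2 is the transcription factor that commits a mesenchymal precursor to this fate, and Sp7, also called osterix, acts downstream of it. Mineral forms where phosphate is freed and pyrophosphate, an inhibitor of crystal growth, is removed. Alpl encodes the tissue-nonspecific alkaline phosphatase that splits pyrophosphate, Enpp1 the ectoenzyme that makes it from ATP, and Phospho1 the phosphatase that releases phosphate from phosphocholine and phosphoethanolamine inside matrix vesicles. Phex is a membrane endopeptidase whose loss causes X-linked hypophosphatemia. Pth1r is the receptor for parathyroid hormone and its related protein, and Bglap and Bglap2 encode osteocalcin, a vitamin K dependent protein of bone matrix. Cells of the monocyte lineage are not the known source of most of these transcripts.

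The libraries held 15718782 to 25371474 counts on genes, and expression is given as counts per 1000000 (CPM), scaled between libraries by TMM, the trimmed mean of M values. Where a library shows no count, up to 3 counts (0.1325 to 0.1716 CPM) cannot be told from 0, a limit that covers counting error only. Femur library S15 stood apart in breadth, with a count in 40494 rows of the table against 17481 to 23513 rows in the other 5 libraries, and 13454 rows were counted in S15 alone. Mandible library S23 held 25189 counts of Xist, against at most 12 in any other library, and no count of Uty, Kdm5d, Eif2s3y and Ddx3y on the Y chromosome, which had 432 to 1581 counts in the other libraries. By these genes S23 was female and the other libraries, all of the femur among them, were male. Sex and site were thus not balanced, and the part of sex was not tested. For each of the 9 genes, the log2 fold change or its adjusted p is also given below without S15 and without S23. Most other effects below are given over all 6 libraries only. The labelled cell type was checked on 10 monocyte markers, whose summed expression ran from 2773.5 to 4737 CPM over the femur libraries and from 2534 to 4931 CPM over the mandible libraries, and none of the 10 passed the test between sites (1 had an unadjusted p under 0.05). Ly6c2 and Csf1r, the defining markers of the list, had 3177 to 10724 and 2834 to 9070 counts. The sum of 10 markers of neutrophils and their precursors ran from 2535.9 to 19362 CPM in femur and from 2833.3 to 8239.8 CPM in mandible libraries. It was above the monocyte sum in every library but S15, so the check shows monocyte transcripts and not the purity of the cells.

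Of the 9 genes, 6 were higher in the libraries of mandibular-derived monocytes and none was lower. These were Runx2, Sp7, Alpl, Bglap, Bglap2 and Pth1r, with log2 fold changes from 1.27 to 6.05. Phex, Phospho1 and Enpp1 were not called. Markers of other cells were higher in the same libraries. The sum of 14 mesenchymal and osteoblast markers went from 129.27 to 182.28 CPM over the femur libraries to 10064 to 17012 CPM over the mandible libraries, and that of 10 markers of the tooth-forming odontoblasts and ameloblasts from 0.22 to 4.75 CPM to 5855.6 to 11443 CPM. Their part in the values of the 9 genes was not tested. A gene was called where edgeR's quasi-likelihood test gave an adjusted p under 0.05 (Benjamini-Hochberg over 18114 tested genes) and at least a 2-fold change. Among all tested genes 3.88% were called higher and 1.3% lower in the mandible. The 3 mandible libraries lay above the 3 femur libraries in 7 of the 9 genes, against 12.7% of all tested genes, and below them in none, against 11.5%. The median log2 fold change was 3.02 over the 9 genes and -0.04 over all tested genes. All 9 passed the filter on low counts, but 4 of them, Sp7, Bglap, Bglap2 and Phospho1, passed only because of their mandible libraries. Without S15 the same 6 genes were called, without mandible S23 4 of them (not Runx2 and Bglap2), and without mandible S19 3 of them (not Runx2, Sp7 and Bglap2). In bulk RNA, fewer cells of a type and less RNA per cell cannot be told apart.

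**Figure D1:**
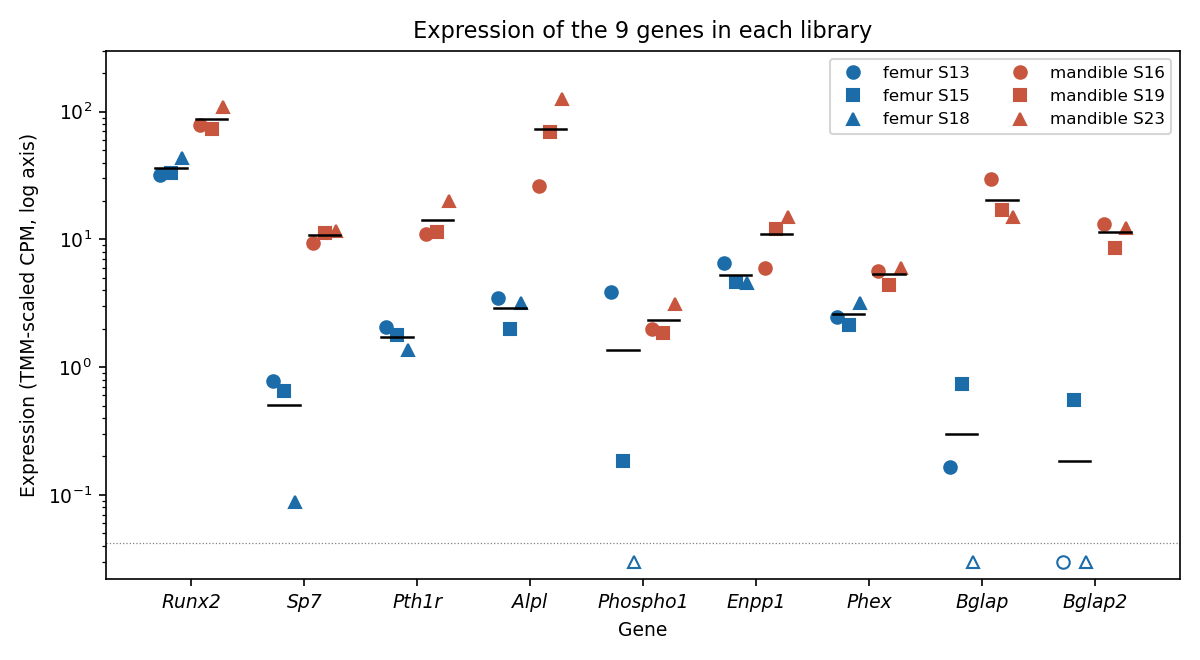
Expression of each gene in TMM-scaled CPM on a log axis, with 1 point for each library, femur in blue and mandible in red. Horizontal bars are group means, and open points under the dotted line are libraries with a count of 0. Mandible points lie above all femur points in 7 genes, and overlap with them in Phospho1 and Enpp1.

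The transcription factors differed in size of effect. Runx2 (ENSMUSG00000039153, chromosome 17, 44495987 to 44814797 of GRCm38, minus strand) had 580, 723 and 974 counts in femur libraries S13, S15 and S18 and 1571, 1554 and 1919 counts in mandible libraries S16, S19 and S23. All mandible libraries were above all femur libraries, the lowest of them 1.71-fold above the highest femur library. Mean expression rose from 36.1 ± 6.01 to 87.4 ± 19.5 CPM (SD, n = 3 for both), and the log2 fold change was 1.27 (standard error 0.27, 95% interval 0.69 to 1.86, edgeR adjusted p = 0.0177). This call was the least stable of the 6, since the adjusted p from edgeR was 0.101 without femur S13, 0.0667 without mandible S19 and 0.0868 without mandible S23, and 0.0286 without S15. After a correction of each library for its trend with gene length, the log2 fold change of Runx2 was 0.71 (edgeR adjusted p = 0.299), while the median of all genes moved from -0.04 to -0.18. The antisense gene Runx2os1 shares 519 exon bases with Runx2 and had at most 68 counts in any library.

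Sp7 (ENSMUSG00000060284, chromosome 15, 102356606 to 102367182, minus strand) had 14, 14 and 2 counts in the femur libraries S13, S15 and S18. In the mandible libraries S16, S19 and S23 it had 188, 236 and 204 counts. The groups were far apart, with the lowest mandible library 12.2-fold above the highest femur library, and the mandible libraries were within 1.24-fold of each other. Expression rose from 0.502 ± 0.364 to 10.8 ± 1.19 CPM (SD, n = 3), and the log2 fold change was 4.42 (standard error 0.81, edgeR adjusted p = 0.00812). Without mandible S19 the adjusted p of Sp7 was 0.0615, and without S15 and S23 it was 0.0119 and 0.0325 (edgeR).

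The receptor gene Pth1r (ENSMUSG00000032492, chromosome 9, 110722085 to 110747145, minus strand) had 37, 39 and 31 counts in the femur and 222, 241 and 347 counts in the mandible, in the same order of libraries. Femur libraries were close to each other, and the lowest mandible library was 5.44-fold above the highest of them. Expression rose from 1.74 ± 0.341 to 14.1 ± 4.95 CPM (SD, n = 3), and the log2 fold change was 3.02 (standard error 0.53, 95% interval 1.87 to 4.18, edgeR adjusted p = 0.0063). Pth1r was called in all 6 fits that each left out 1 library, with log2 fold changes from 2.64 to 3.17, of which 3.01 was without S15 and 2.64 without S23. Myl3 overlaps 95 exon bases of Pth1r on the other strand and had 5 counts in S15 and none elsewhere.

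Alpl varied most between the mandible libraries. It lies on chromosome 4 from 137741733 to 137796384 on the minus strand (ENSMUSG00000028766) and had 63, 43 and 72 counts in femur libraries S13, S15 and S18. Its counts in S16, S19 and S23 were 526, 1458 and 2195, or 26.3, 69.2 and 125.5 CPM. The mandible libraries spanned 4.77-fold, and the lowest, S16, was still 7.56-fold above the highest femur library. Expression rose from 2.88 ± 0.793 to 73.7 ± 49.8 CPM (SD, n = 3), and the log2 fold change was 4.68 (standard error 0.55, 95% interval 3.47 to 5.89, edgeR adjusted p = 0.000572). The gene was called in all 6 fits with 1 library left out, where its log2 fold change ran from 3.999 without S23 to 5.08, and was 4.43 without S15.

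Enpp1, the enzyme that acts on pyrophosphate in the opposite direction, did not separate the sites. The gene (ENSMUSG00000037370, chromosome 10, 24637914 to 24712159, minus strand) had 118, 100 and 103 counts in S13, S15 and S18 and 119, 255 and 263 counts in S16, S19 and S23. Mandible S16, at 5.95 CPM, lay below femur S13, at 6.52 CPM, and the other mandible libraries lay above all femur libraries. Expression averaged 5.23 ± 1.12 CPM for femur and 11.0 ± 4.64 CPM for mandible libraries (SD, n = 3), with a log2 fold change of 1.08 and a 95% interval from -0.05 to 2.20 (edgeR adjusted p = 0.33). Without S15 it was 0.95 and without S23 0.74. An exact two-sided permutation test gave p = 0.2, where 3 against 3 libraries can give no less than 0.1. S16 was thus the lowest mandible library for both Alpl and Enpp1.

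Within a library, the log2 ratio of Alpl to Enpp1 counts, with a prior count of 2, was -0.89, -1.18 and -0.50 in S13, S15 and S18 and 2.13, 2.51 and 3.05 in S16, S19 and S23. Enpp1 was thus counted more often than Alpl in every femur library and less often in every mandible library. This compares counts and not levels per length. Per kilobase of exons, Alpl stood above Enpp1 in the femur libraries too. It had 0.863, 0.491 and 0.789 CPM per kilobase in S13, S15 and S18, against 0.635, 0.449 and 0.444 for Enpp1. The ratio differed by 3.42 (exact two-sided permutation test, p = 0.1, adjusted p = 0.13 over 13 ratios), and p = 0.1 is the smallest that the design allows. The log2 ratio of Sp7 to Runx2 was -6.18 ± 1.45 in the femur and -2.99 ± 0.262 in the mandible (SD, n = 3), without overlap (exact permutation test, p = 0.1, adjusted p = 0.13).

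Phospho1 (ENSMUSG00000050860, chromosome 11, 95824499 to 95832140, plus strand) had 70, 4 and 0 counts in S13, S15 and S18 and 40, 39 and 55 counts in S16, S19 and S23. The highest library of all was femur S13, and the mandible libraries lay between it and the other femur libraries. The log2 fold change was 0.79, with a 95% interval from -2.60 to 4.18 (edgeR adjusted p = 0.892), and 4.59 without S13 (edgeR adjusted p = 0.447), 0.23 without S15 and 0.47 without S23. S13 also had the highest summed expression of 10 erythroid markers, 1652.5 CPM, against 246 to 305 CPM in the other femur libraries and 107 to 187 CPM in the mandible. Its part in the Phospho1 values was not tested. Phospho1 shares 1818 exon bases with Zfp652 on the same strand and 1708 with Abi3 on the other strand, of the 2029 bases of its exons, and 86.2% of the 50-base windows of its longest transcript also occur in transcripts of these genes. Zfp652 had 1651 to 2616 and Abi3 305 to 1094 counts, so the count of Phospho1 is uncertain.

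Phex (ENSMUSG00000057457, chromosome X, 157162075 to 157415312, minus strand) had 45, 46 and 72 counts in the femur libraries and 113, 93 and 104 counts in the mandible libraries. The groups did not overlap, the lowest mandible library being 1.39-fold above the highest femur library (exact two-sided permutation test, p = 0.1). Expression was 2.60 ± 0.539 and 5.34 ± 0.814 CPM (SD, n = 3), and the log2 fold change was 1.04 whose 95% interval ran from -0.41 to 2.49 (edgeR adjusted p = 0.519). Without S23, which differs from the other libraries in its sex-linked genes, the log2 fold change of this X-linked gene was 0.90 (edgeR adjusted p = 0.639), and without S15 it was 0.87. Phex, Phospho1 and Enpp1 were called in none of the 6 fits with 1 library left out.

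The osteocalcin genes Bglap and Bglap2 are neighbouring near-identical copies on the minus strand of chromosome 3. Their coding sequences are shown because they decide how well reads can be assigned to either gene. Read from GRCm38 with the GENCODE M21 exons joined, chr3:88383638-88384415 for Bglap and chr3:88377873-88378650 for Bglap2, each has 285 bases, printed 5′ to 3′ with the 4 differing bases in capitals.
Bglap: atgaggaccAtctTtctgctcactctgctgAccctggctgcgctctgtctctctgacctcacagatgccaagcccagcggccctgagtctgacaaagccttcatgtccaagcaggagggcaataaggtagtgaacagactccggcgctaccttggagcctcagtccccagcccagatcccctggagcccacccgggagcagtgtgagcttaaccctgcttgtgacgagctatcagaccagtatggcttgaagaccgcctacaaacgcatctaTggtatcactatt
Bglap2: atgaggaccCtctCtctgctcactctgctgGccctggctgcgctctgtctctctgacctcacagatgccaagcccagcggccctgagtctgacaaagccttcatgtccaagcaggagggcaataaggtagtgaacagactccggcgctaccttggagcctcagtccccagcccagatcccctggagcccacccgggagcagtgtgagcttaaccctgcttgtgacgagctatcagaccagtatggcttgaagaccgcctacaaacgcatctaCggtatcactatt
The substitutions from Bglap to Bglap2 are A10C, T14C, A31G and T273C, counted from 1 at the first base of the start codon, and the sequences are 98.6% identical. Of all 50-base windows, 74.7% of the Bglap transcript occur in Bglap2, and 88.2% of the Bglap2 transcript occur in Bglap or Bglap3. The sources used here do not say how the counting treated reads with more than 1 position, so the split between the copies is uncertain.

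Bglap (ENSMUSG00000074483, 88383501 to 88384464) had 3, 16 and 0 counts in S13, S15 and S18 and 589, 355 and 262 counts in S16, S19 and S23. Mandible S16 was the highest, the reverse of its place in Alpl, where it was the lowest of the mandible. Expression rose from 0.301 ± 0.387 to 20.4 ± 7.88 CPM (SD, n = 3), and the log2 fold change was 6.05 (standard error 0.95, 95% interval 3.96 to 8.14, edgeR adjusted p = 0.00354). Library S15 held 16 of the 19 femur counts, and without it the fitted log2 fold change was 7.92, against femur counts of 3 and 0 (edgeR adjusted p = 0.000522). Bglap was called in all 6 fits that left out 1 library, and without S23 its log2 fold change was 6.17 (edgeR adjusted p = 0.0103).

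Bglap2 (ENSMUSG00000074486, 88377736 to 88378699) had 0, 12 and 0 counts in the femur and 265, 181 and 216 counts in the mandible, in the same order. All 12 femur counts were in S15, and the other femur libraries had none. Expression rose from 0.184 ± 0.319 to 11.4 ± 2.48 CPM (SD, n = 3), and the log2 fold change was 5.88 (standard error 1.21, 95% interval 3.22 to 8.53, edgeR adjusted p = 0.0156). With S15 left out, the limit of 3 counts per library put the mandible mean at least 68.8-fold above the femur. The log2 fold change fitted without S15 was 10.805, against femur counts that were all 0 (edgeR adjusted p = 0.000595). The call was lost without mandible S19 (edgeR adjusted p = 0.0724) and without mandible S23 (edgeR adjusted p = 0.052).

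Bglap3, another copy next to them that is not counted among the 9 genes, went unseen in the mandible, with 0 counts in each library, and had 0, 12 and 13 counts in S13, S15 and S18. It did not pass the filter and was not tested. With all 3 rows added, the sums were 3, 40 and 13 counts in the femur and 854, 536 and 478 counts in the mandible, a separation that does not depend on how reads were split between the copies. Bglap took 69.0, 66.2 and 54.8% of the Bglap and Bglap2 counts in S16, S19 and S23. The log2 ratio of Bglap2 to Bglap differed by -0.20 between the sites, with overlapping groups (exact permutation test, p = 0.8), and its sign changed with the prior count and without S18.

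**Figure D2:**
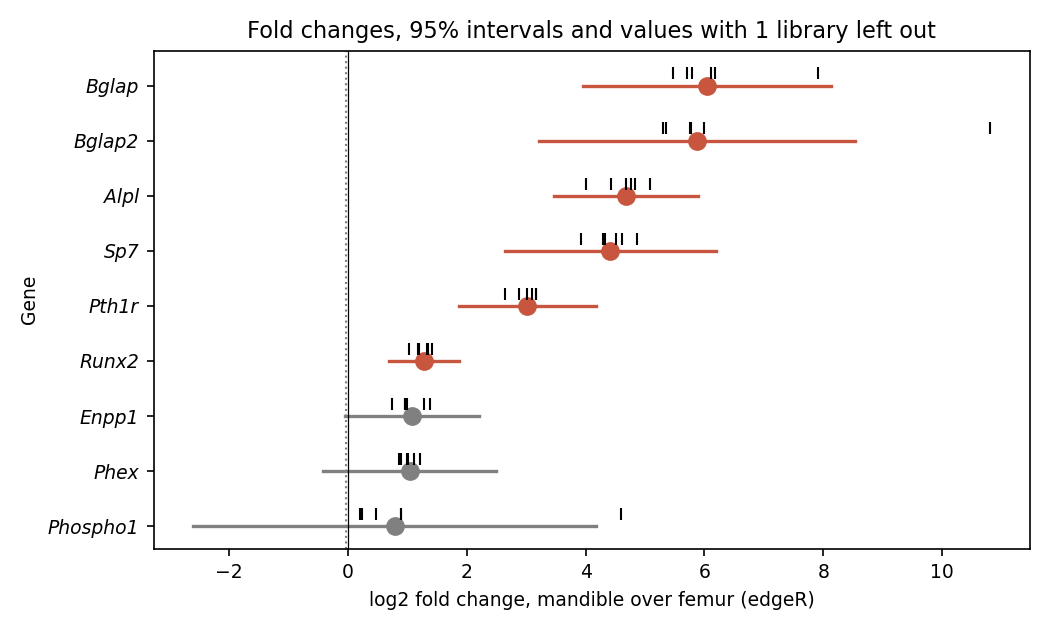
Log2 fold change of each gene, mandible over femur, with its 95% interval from edgeR. Red marks called genes and grey the others, black ticks are the values with 1 library left out, and the dotted line is the median of all tested genes. The outlying ticks are Bglap2 without S15, where its femur counts are all 0, Bglap without S15, at 7.92, and Phospho1 without S13, at 4.59.

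Levels of different genes were compared as CPM per kilobase of exons. In the femur, Runx2 was first at 4.09 ± 0.68 CPM per kilobase, and no other gene had a mean above 0.714, the mean of Alpl. In the mandible the first was Bglap, at 33.1 ± 12.8, followed by Bglap2 at 24.2 ± 5.25, Alpl at 18.3 ± 12.3 and Runx2 at 9.89 ± 2.21 CPM per kilobase (SD, n = 3). Bglap, Bglap2 and Alpl overlapped in their ranges over libraries, and when the longest transcript replaced the joined exons Alpl stood above Bglap2, at 29.2 against 24.2. Pth1r followed at 4.83 ± 1.69 and Sp7 at 3.17 ± 0.351. The lowest mandible levels were those of Phospho1, Enpp1 and Phex, from 0.849 to 1.15 CPM per kilobase. These genes were not called between the sites. In the femur, however, their means stood above those of Bglap2 and Sp7, which were called. The femur mean of Phospho1 rested on S13, with 1.91, 0.0908 and 0 in S13, S15 and S18. That of Bglap2 rested on S15, with 0, 1.17 and 0, and in S15 Bglap2 stood above Phospho1, Enpp1 and Phex. The means of Phex and Bglap2 were close, at 0.413 ± 0.0857 and 0.391 ± 0.678 (SD, n = 3). Sp7, last in the femur at 0.148, was sixth in the mandible.

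Col1a1, the gene of the main collagen chain of bone and of other connective tissues, had a larger fitted fold change over all 6 libraries than any of the 9 genes, and went from 487, 984 and 551 counts in S13, S15 and S18 to 94678, 118565 and 123047 counts in S16, S19 and S23. Its log2 fold change was 7.49 (edgeR adjusted p = 1.56e-05), but without S15, where the femur counts of Bglap and Bglap2 are at or near 0, it cannot be ranked against them. Relative to Col1a1 in the same library, every one of the 9 genes was lower in the mandible on average. This follows from the larger rise of Col1a1, so the ratios and their tests largely restate that rise. The difference in the log2 ratio, mandible minus femur, was -6.54 for Enpp1, -6.505 for Phex and -6.26 for Runx2. It was -5.23 for Phospho1, -4.61 for Pth1r, -3.125 for Alpl, -3.08 for Sp7, -1.599 for Bglap2 and -1.395 for Bglap. The groups overlapped for Bglap (exact permutation test, p = 0.2, adjusted p = 0.217) and did not for the other 8 (exact permutation test, p = 0.1, adjusted p = 0.13). For Bglap and Bglap2 the femur ratio rests on counts near 0 and on the prior count. With a prior count of 0.5 in place of 2 their differences were -0.534 and -0.22, and the groups overlapped for both.

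**Figure D3:**
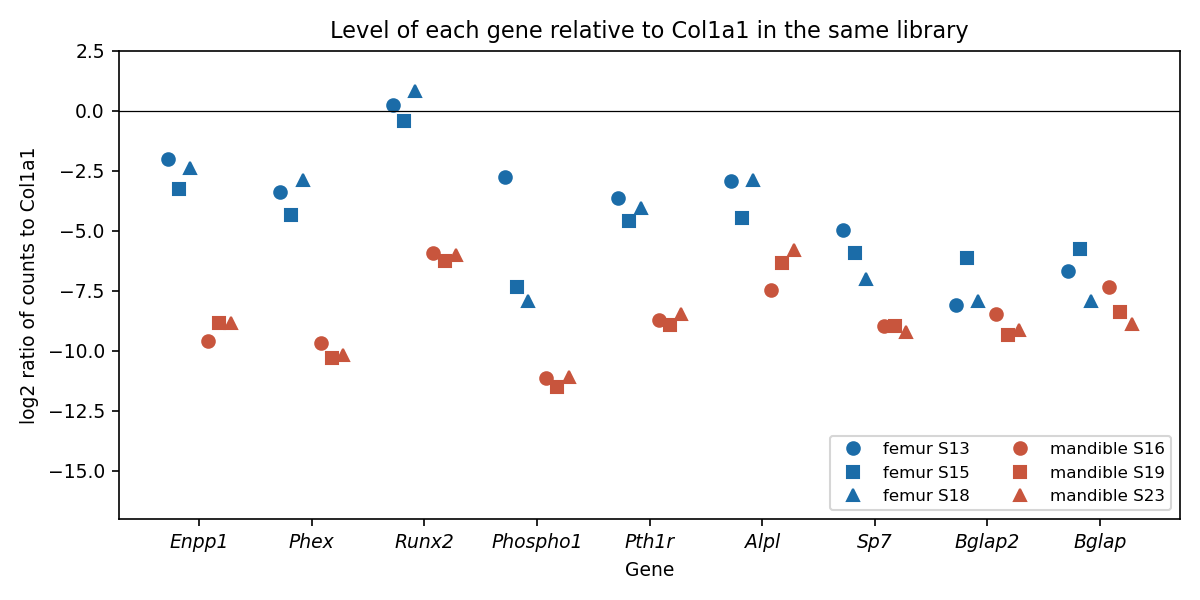
Log2 ratio of the counts of each gene to Col1a1 in the same library, with a prior count of 2, femur in blue and mandible in red, ordered by the difference between the sites. The differences of Enpp1, Phex and Runx2 are -6.54, -6.505 and -6.26, and the sites overlap at Bglap.

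Of the 14 mesenchymal and osteoblast markers, Col1a1 and Col1a2 among them, 12 were called higher. Beside this and the marker counts below, 3.88% of all tested genes were called higher and 1.3% lower. Of the 10 markers of odontoblasts and ameloblasts, led by Dspp and Amelx, 9 were called higher, and their summed expression in the femur was highest in S15. Dspp, which marks odontoblasts, had 0, 15 and 0 counts in S13, S15 and S18, and Odam, named after its values were seen, had none in any femur library. All 10 of these tooth markers, Dspp and Odam among them, passed the filter on low counts only because of their mandible libraries, which favours higher calls. Of 8 cartilage markers, 3 were called higher, and their sum reached 16.1 CPM at most in femur and 61.9 to 144.5 CPM in mandible libraries. The 10 markers of marrow stroma and vessels, led by Lepr and Cxcl12, summed to 253 to 447 CPM in femur and 106 to 220 CPM in mandible libraries, with 1 of 9 tested genes called lower and none higher. Of the blood cell lists, 6 of 7 megakaryocyte markers, 4 of 10 erythroid markers and 1 of 10 neutrophil markers were called lower. The neutrophil marker called was S100a8, and the neutrophil sums of the 2 sites overlapped. Of 8 B lineage and 6 plasmacytoid dendritic cell markers tested, 2 and 1 were called higher. The sum of the dendritic cell markers was 50.6 to 60.3 CPM in femur and 92.3 to 118.9 CPM in mandible libraries. Most of that difference was in Tcf4, the 1 called, with means of 36.8 CPM in femur and 77.69 CPM in mandible libraries. The other tested dendritic cell markers had log2 fold changes from -0.568 (Ly6d) to 1.113 (Siglech) and were not called. The part of any of these cell types in the values of the 9 genes was not tested either.

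Of 29 other members of the same gene families 17 were tested, 2 were called higher, beside 3.88% of all tested genes, none was lower, and their median log2 fold change was 0.27. Sp6, a tooth-epithelium relative of Sp7, had 7, 19 and 3 counts in S13, S15 and S18 and 669, 804 and 1005 counts in S16, S19 and S23, a log2 fold change of 6.51 (standard error 0.61, edgeR adjusted p = 0.000139). Enpp2, the autotaxin relative of Enpp1, had 32, 15 and 9 counts in the femur and 203, 737 and 1028 counts in the mandible, a log2 fold change of 5.20 (standard error 0.75, edgeR adjusted p = 0.00209), and was not called with limma-voom (adjusted p = 0.0675). Sp6 and Enpp2 passed the filter on low counts only because of their mandible libraries. The most abundant relatives, Sp1, Sp3 and Runx1, had log2 fold changes of 0.27, 0.003 and 0.20 and were not called (edgeR adjusted p from 0.705 to 0.997). Of the 12 relatives not tested, 11 genes had a count in S15, against 0 to 3 of the 12 genes in each of the other libraries.

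Of 25 other transcription factors of skeletal and dental mesenchyme, 24 were tested and 9 were called higher and none lower, beside 3.88 and 1.3% of all tested genes, with a median log2 fold change of 2.84. Msx1, a homeobox factor of the jaw and tooth bud, had 0, 1 and 0 counts in the femur libraries and 155, 147 and 258 counts in the mandible libraries (edgeR adjusted p = 0.000726). Dlx3 had 0, 7 and 0 counts in the femur, the 7 in S15, and 337 to 484 counts in the mandible (edgeR adjusted p = 0.000992). Dlx5, Gli1 and Prrx1 had log2 fold changes of 6.33, 5.03 and 4.96, with edgeR adjusted p of 0.00405, 0.00827 and 0.00999. Msx1, Dlx3, Dlx5, Gli1 and Prrx1 passed the filter on low counts only because of their mandible libraries, which favours higher calls and a higher median. Gli1 lost the call without mandible S23 (edgeR adjusted p = 0.0521) and Prrx1 without mandible S19 (edgeR adjusted p = 0.0571), and with limma-voom Dlx5 and Gli1 were not called (adjusted p = 0.107 and 0.056). The abundant factors Atf4, Trps1 and Ets1 were not called, at -0.002, 0.57 and 0.20 on the log2 scale.

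Among 27 other genes of mineral, phosphate and pyrophosphate handling, 20 were tested and 4 were called higher, none lower, beside the same shares of all tested genes, with a median log2 fold change of 0.28. Smpd3, a neutral sphingomyelinase needed for normal mineralization, had 20, 37 and 15 counts in S13, S15 and S18 and 807, 369 and 112 counts in S16, S19 and S23, a log2 fold change of 4.205 (standard error 0.71, edgeR adjusted p = 0.00544). It was not called with limma-voom (adjusted p = 0.0859). S16 was the highest mandible library for Smpd3, as for Bglap. Fam20a rose by 3.82 and the matrix phosphoprotein gene Dmp1 by 3.33 on the log2 scale (edgeR adjusted p = 0.00197 and 0.0071). Fam20c, the kinase of secreted phosphoproteins, rose by 1.36 (edgeR adjusted p = 0.0484) and was called in 1 of the 6 fits with 1 library left out, that without S15. Anxa2, Anxa6 and Anxa5, the most abundant genes of the list, were not called, at 0.02, 0.65 and 0.26 on the log2 scale.

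Of 35 ligand, G protein, kinase and target genes of the parathyroid hormone pathway, 34 were tested, 2 were called higher and 1 lower, beside 3.88% higher and 1.3% lower among all tested genes, and their median log2 fold change was 0.21. Gnas, Prkar1a and Rgs2, the most abundant, were at 0.40, 0.15 and -0.12 on the log2 scale and were not called. The orphan nuclear receptor genes Nr4a2 and Nr4a1 rose by 1.66 and 1.25 (edgeR adjusted p = 0.0428 and 0.0468) and were called in 0 and 1 of the 6 fits with 1 library left out. Prkar2b, a regulatory subunit of protein kinase A, fell by 1.58 on the log2 scale (standard error 0.31, edgeR adjusted p = 0.0116), from 2992, 2196 and 3123 counts in the femur to 1025, 1137 and 531 in the mandible, and was not called without femur S13 (edgeR adjusted p = 0.0621). Pthlh, the ligand of Pth1r made in tissues and named here after its values were seen, had 0, 2 and 0 counts in the femur and 37, 78 and 35 in the mandible, and was not called (edgeR adjusted p = 0.0785).

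**Figure D4:**
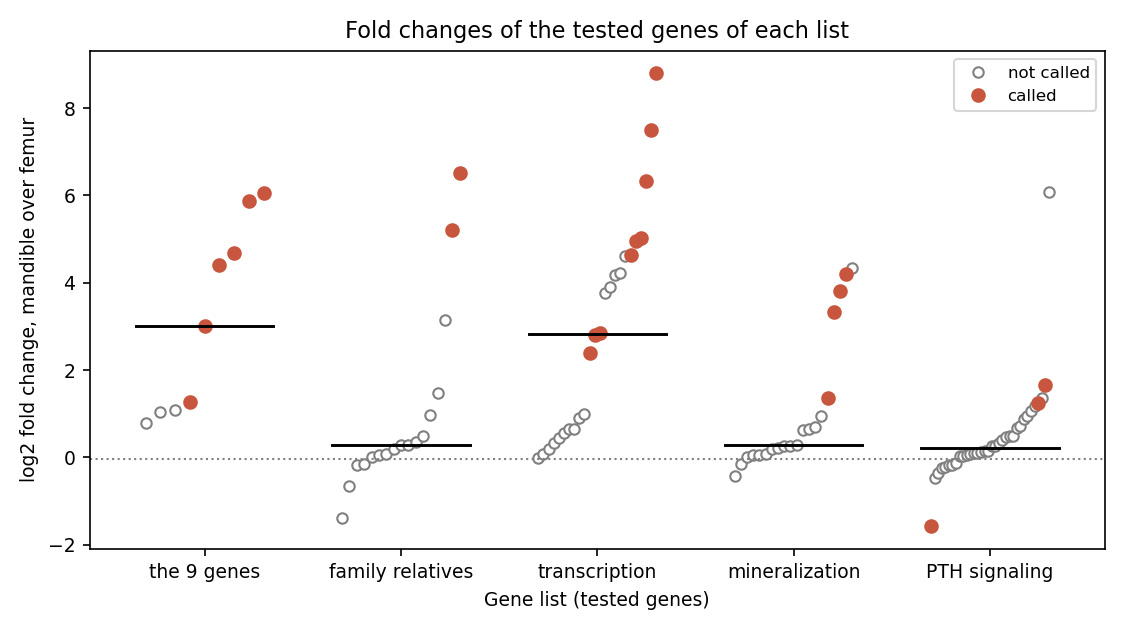
Log2 fold change, mandible over femur, of the tested genes of each list, with 1 point for each gene, red where called. Black bars are list medians and the dotted line the median of all tested genes. Some genes passed the filter on low counts only because of their mandible libraries. The medians of the 9 genes and of the transcription factors are 3.02 and 2.84, and those of the other lists 0.21 to 0.28.

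For each of the 9 genes, the genes closest to it across the 6 libraries were found by the Pearson correlation of log2 CPM among 16135 genes with a mean of at least 1 CPM, as a description of libraries that share site and depth. Alpl was followed most closely by Gja1, Igf1 and Spon1, with r from 0.996 to 0.997. Bglap was closest to Col11a1, Akap13 and Nfkbie, Bglap2 to Susd5, Fyn and Ptn, and Sp7 to the collagen-processing gene Pcolce, then to Islr and Col16a1. Pth1r was closest to Ltbp3, Epb41l3 and Creb3l2, and Runx2 to Gm13889, Emp1 and Cd99l2. Phex was closest to Thra, Pik3ip1 and Calcoco1, Enpp1 to Adgra3, Fgf13 and Plpp3, and Phospho1 to Ell2, Mzt2 and Plpp1, the last 3 with the lowest r, 0.979 to 0.986. No gene was named for more than 1 of the 9.

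Promoters were read from RefSeq (GRCm38.p6) for 7 of the 9 genes, in 10 windows of 250 bases before a start site, and searched on both strands for the RUNX core ACCACA and for the TATA box letters TATAAA, which do not overlap each other. The RUNX letters were present in windows of Bglap, Enpp1 and Runx2, in 3 of 10, against 4614 of the 32851 windows of all genes, and the TATA letters in 2 of 10, against 4063 of 32851. The windows of Bglap, chr3:88384467-88384716, and Runx2, chr17:44814628-44814877, both on the minus strand, are shown 5′ to 3′ since these genes were higher in the mandible and hold the RUNX letters, with both motifs in capitals.
Bglap promoter: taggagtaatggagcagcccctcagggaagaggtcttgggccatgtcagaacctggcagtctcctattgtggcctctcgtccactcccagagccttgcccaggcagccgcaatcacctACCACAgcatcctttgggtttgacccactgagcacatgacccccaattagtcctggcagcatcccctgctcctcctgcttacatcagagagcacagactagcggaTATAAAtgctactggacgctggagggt
Runx2 promoter: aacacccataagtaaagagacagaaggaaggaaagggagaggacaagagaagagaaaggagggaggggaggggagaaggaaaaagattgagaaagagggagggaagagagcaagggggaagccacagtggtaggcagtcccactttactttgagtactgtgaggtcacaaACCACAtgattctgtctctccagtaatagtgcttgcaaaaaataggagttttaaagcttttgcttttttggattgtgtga
In Bglap the RUNX letters begin 132 bases and the TATA letters 27 bases before the start, and in Runx2 the RUNX letters begin 80 bases before it. Enpp1, which was not called, holds the RUNX letters 144 bases before its start. These matches describe the letters and are no evidence of binding.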

How the data were processed

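RNA of 6 libraries of bone marrow monocytes, 3 from each skeletal site, was sequenced in pairs of reads. The authors trimmed the reads with Trimmomatic, mapped them with HISAT2 2.1.0 (submitters' processing notes) to a genome named GRCm38, ran featureCounts on genes, and deposited raw counts per gene and library, with the length of the joined exons. Strand use and the treatment of reads with several positions are not given in the sources used here. Of 52029 genes shared with GENCODE M21 (GRCm38), only 2979 had a deposited interval within the M21 gene, and the positions given here are those of M21, matched on Ensembl identifiers. The exon lengths of all 9 genes equalled those of M21.

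Groups were taken from the sample titles. The test was edgeR's quasi-likelihood test (edgeR 4.0.16, R 4.3.3, TMM, no covariates), after filterByExpr (min.count 10, min.total.count 15) with library sizes taken over the tested genes. Calls needed an adjusted p (Benjamini-Hochberg, 18114 genes) under 0.05 and a 2-fold change. A gene could pass the filter through the mandible libraries alone or the femur libraries alone, which favours a call towards that site. This holds for the lists and marker sets too. Standard errors are the log2 fold change divided by the square root of F. Ratios had a prior count of 2 and exact two-sided permutation tests. Fits were tested on simulated data. The 9 genes and all lists were chosen with earlier results of these data known. All 9 genes are reported, and from each list at most 3 genes of highest mean CPM and at most 5 called genes of largest log2 fold change are named, with the 3 closest genes by Pearson r for each of the 9 and the first markers of each cell type. Alternatives were DESeq2 1.42.0, limma-voom (limma 3.58.1), other scalings and filters, a length correction (loess, span 0.4), the osteocalcin copies summed, and each library left out.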

Additional observations from a re-analysis of the deposited data

How the results depend on the processing

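No paired analysis was made because the sources used here do not say which femur and mandible libraries, if any, came from the same mice. The number of genes called was 938, and 1548 with DESeq2, 1590 without a filter on low counts, and 434 (without mandible S19) to 1565 (without femur S15) with 1 library left out. The share called higher was 74.8%, and 64.1% without that filter, where the median of all genes was -1.09. With 1 library left out it was 61.2% (without femur S15) to 87.8% (without femur S13), and the genes called lower, 236 in all, were 58 (without mandible S19) to 608 (without femur S15). Of the 9 genes, 6 were called, and 3 to 6 with 1 library left out, the fewest without mandible S19. In the transcription list 9 were called, 14 with DESeq2. In the parathyroid hormone list 3 were called, 5 with DESeq2, 1 with the length correction and 0 to 2 with 1 library left out, with none left without femur S13. Of the relatives 2 were called, and 1 with limma-voom. The log2 ratio of Bglap2 to Bglap, -0.20, was 0.31 with a prior count of 0.5 and -0.616 (without femur S13) to 0.093 (without femur S18) with 1 library left out. Among the 9 genes, those that lost their call were Runx2 in 4 alternatives, Bglap2 in 2 and Sp7 in 1. The causes were not tested. A depth of 15718782 counts in S23 limits the precision of genes with few counts.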

Other observations

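Over the 6 libraries, 16 of the 19 femur counts of Bglap, all 12 of Bglap2, all 15 of Dspp and all 19 of Mmp20, named after its values were seen, were in femur library S15, which had a count in 40494 rows of the table against 20979 in S13 and 21128 in S18. Of the rows with a count in 1 library alone, 13454 were in S15 and 77 to 417 in each of the others. In the mandible, S23 was the highest library for Runx2, Sp7, Alpl, Phex, Phospho1, Pth1r and Enpp1, and S16 for Bglap and Bglap2.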
